A study of Mus musculus with 18 samples.

Results

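The genes described here are 6 acute-phase and innate defence genes, Saa3, C3, Lcn2, Nlrp3, Tlr2 and Ripk2, of 23212 gene names in the mouse annotation. They were chosen by name with their FPKM levels in these libraries known, so their levels and differences are given as a description and carry no test. RNA-seq was carried out on immortalized rela-/- mouse embryonic fibroblasts reconstituted by retroviral transfer with mouse RelA. The lines carried RelA(wt), the double substitution RelA(L449A+F473A), called RelA(TA2), or RelA(S276A), and each was sampled unstimulated and after 1 h and 2 h of 5 ng/ml TNFα. The 9 conditions had 2 libraries each, 18 in all, and every group lacks the endogenous Rela gene, so the only RelA is the one put back.

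RelA is the NF-κB subunit whose C-terminal activation domain TA2 binds the TAZ1 domain of the coactivators CBP and p300, while phosphorylation of Ser276 supports a further contact with CBP through its KIX domain. TNFα releases NF-κB from its IκB inhibitors, and the freed factor enters the nucleus and binds κB sites. Acute-phase proteins are secreted in large amounts during inflammation, mostly by the liver, but fibroblasts also make some of them. Pattern-recognition receptors of the Toll-like and NOD-like families sense microbial products, and most of their signal chains lead back to NF-κB.

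The values deposited by the authors are FPKM, fragments per kilobase of transcript and per M mapped fragments, for each transcript assembled in a library. The FPKM of a gene's assembled transcripts were added up, and a gene with no assembled transcript was listed at 0, which does not show that it was silent. Of the transcripts that were assembled alone, 99.8% rested on at least 10 fragments, and the smallest piece of any of the 6 genes also rested on 10. The number of fragments behind each value is given here per M fragments in genes, because a gene assembled in several short pieces gets an inflated summed FPKM. For transcripts assembled alone it was worked out from the deposited confidence limits. For the others it was estimated from FPKM and length, on the ratio seen in transcripts assembled alone. Most Tlr2 values and many of Ripk2 rest on such estimates, so their fragments are not independent of FPKM. Libraries held 25.3 to 31.3 M mapped fragments. Rela itself was listed at 156 to 187 FPKM in RelA(wt), 315 to 366 FPKM in RelA(TA2) and 174 to 211 FPKM in RelA(S276A) libraries, and FPKM cannot show which allele was read. The part that these Rela levels play in differences between lines was not tested. RelA protein, which the study's immunoblots put lower in RelA(S276A) than in RelA(wt) cells, is not measured by RNA-seq, and whether a line is a clone or a pool is not given in the sources used here. All 8 fibroblast markers were above 1 FPKM in every line, with summed levels of 3746 to 4621 FPKM in RelA(wt), 4129 to 4802 FPKM in RelA(TA2) and 3485 to 4152 FPKM in RelA(S276A). All 5 hepatocyte markers were listed at 0 in all libraries, as were Ptprc, Itgam, Emr1 and Aif1 of the 7 macrophage markers. Of the rest of the macrophage list, Csf1r (2.38 to 16.1 FPKM) and Cd68 (4.23 to 16.9 FPKM) were above 0 in all 18 libraries. Lyz2 (0 to 2.51 FPKM) was above 0 in 16. The sum of the 7 ranged from 12.6 to 29.0, 10.03 to 16.9 and 11.2 to 28.8 FPKM in the 3 lines in the same order. Mpo, Elane, S100a8 and S100a9 of the neutrophil list were at 0 too, and the other gene of that list, Csf3r, rested on 1 piece covering 2.94% to 3.53% of the gene. In bulk RNA, fewer cells of a type and less RNA per cell cannot be told apart. The libraries RelA(TA2) at 0 h replicate 1 and RelA(S276A) at 1 h replicate 1, had 95.7% and 95.8% of their recovered fragments in genes, against 97.9% to 98.6% in the others.

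Saa3, C3, Lcn2 and Nlrp3 were not assembled in any of the 6 RelA(S276A) libraries. In the other lines Saa3 and C3 were assembled in all 12 libraries, Lcn2 in 9 and Nlrp3 in 8. Tlr2 and Ripk2 were assembled in all 18. The plot of recovered fragments shows this split between 4 genes absent from the RelA(S276A) assemblies and 2 present throughout.

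**Figure D1:**
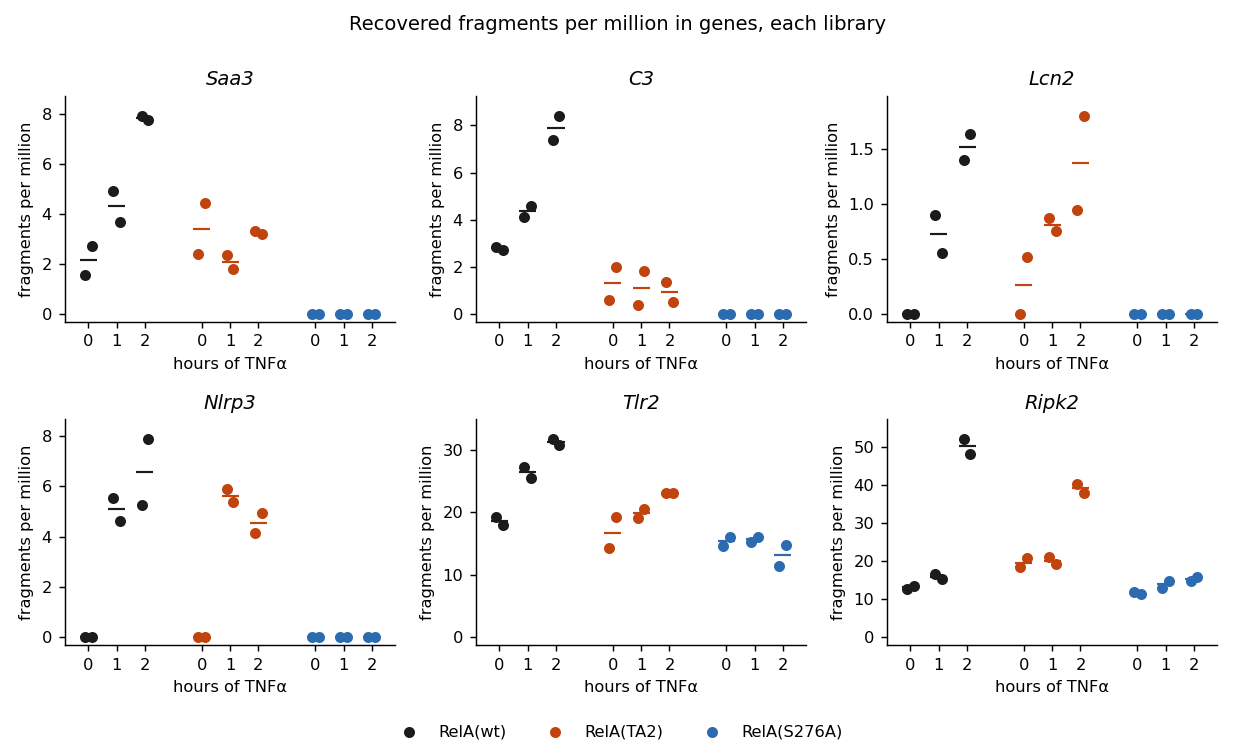
Recovered fragments per M fragments in genes (y axis) for the 6 genes, each point 1 library and each bar the mean of 2 libraries, against hours of TNFα (x axis) in the 3 lines. Saa3, C3, Lcn2 and Nlrp3 lie at 0 in all 6 RelA(S276A) libraries, and C3 runs from 2.70 to 8.40 in RelA(wt) and from 0.40 to 1.99 in RelA(TA2).

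Saa3, serum amyloid A3, is an acute-phase apolipoprotein made outside the liver, at chr7:46711998-46715676 on the minus strand (mm10). In RelA(wt) cells Saa3 was listed at 4.61 and 7.43 FPKM before TNFα, 12.9 and 11.5 FPKM at 1 h and 20.4 and 20.1 FPKM at 2 h. The libraries of these 3 times did not overlap and stood in the order of time. Saa3 had a log2 difference from 0 h of 0.99 ± 0.26 (SE) at 1 h and 1.71 ± 0.26 at 2 h in this line, on the log2(FPKM + 0.5) scale. In RelA(TA2) cells Saa3 stood at 7.08 and 12.5 FPKM at 0 h, 6.24 and 5.01 FPKM at 1 h and 10.3 and 8.74 FPKM at 2 h. Both libraries at 1 h lay below both at 0 h, a log2 difference of -0.71 ± 0.26 for Saa3, and the 2 h libraries lay between the unstimulated ones (log2 difference 0.01 ± 0.26). These values rested on which unstimulated library was used: without RelA(TA2) 0 h replicate 1 Saa3 differed by -1.10 at 1 h and -0.39 at 2 h, and without replicate 2 by -0.31 and 0.40. The gap between 0 h and 1 h was narrow, since replicate 1 held 60 fragments at 0 h and 59 at 1 h. The deposited limits of these RelA(TA2) libraries overlapped, at 5.25 to 8.91 and 4.62 to 7.87 FPKM. The unstimulated RelA(TA2) levels of Saa3 overlapped those of unstimulated RelA(wt) cells, whereas at 1 h and at 2 h both RelA(TA2) libraries lay below both RelA(wt) libraries. Saa3 was assembled almost whole, over 92.8% to 100% of its exonic bases, from 36 to 175 fragments in RelA(wt) and 43 to 111 in RelA(TA2), so FPKM and fragments moved together. The deposited 95% confidence limits of its FPKM at 0 h were 3.07 to 6.14 and 5.67 to 9.20 in the RelA(wt) libraries. Saa3 shares sequence with Saa1 and Saa2, both listed at 0 in all libraries, so reads from these copies could not be told apart with certainty.

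C3, complement component 3, is the protein on which all routes of complement activation converge, at chr17:57203973-57228136 on the minus strand. Its summed FPKM were 7.43 and 6.63 at 0 h, 2.92 and 9.46 at 1 h and 7.18 and 5.35 at 2 h in RelA(wt) cells, with no order by time. The fragments behind C3 gave another picture, at 2.84 and 2.70 per M at 0 h, 4.11 and 4.58 at 1 h and 7.38 and 8.40 at 2 h. These 3 pairs of C3 values did not overlap, and the log2 difference from 0 h was 0.56 ± 0.46 (SE) at 1 h and 1.36 ± 0.46 at 2 h on fragments, against -0.37 ± 0.69 and -0.17 ± 0.69 on FPKM. The FPKM value at 1 h was -1.14 without RelA(wt) 1 h replicate 2 and 0.41 without replicate 1. C3 was listed in RelA(TA2) cells at 1.503 and 10.1 FPKM at 0 h, 1.34 and 2.87 FPKM at 1 h and 1.78 and 0.97 FPKM at 2 h. The 10.1 FPKM of C3 were the sum of 4 pieces holding 50 fragments and 31.7% of the exonic bases, whereas the 5.35 FPKM of RelA(wt) 2 h replicate 2 came from 3 pieces holding 189 fragments and 91.5% of the bases. Counted as fragments, all 6 RelA(TA2) libraries (0.40 to 1.99 per M) lay below all 6 RelA(wt) libraries (2.70 to 8.40 per M) for C3, a log2 difference of -1.78 ± 0.26 over the 3 times. On FPKM the same difference for C3 was -1.27 ± 0.40, or -0.40 ± 0.25 with the highest transcript only, and the libraries overlapped. Within RelA(TA2) cells C3 differed from 0 h by -0.21 ± 0.46 at 1 h and -0.27 ± 0.46 at 2 h on fragments, with overlapping libraries. On FPKM these differences for C3 were -0.89 ± 0.69 and -1.33 ± 0.69, and became 0.31 and -0.13 without RelA(TA2) 0 h replicate 2 but -2.09 and -2.53 without replicate 1.

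**Figure D2:**
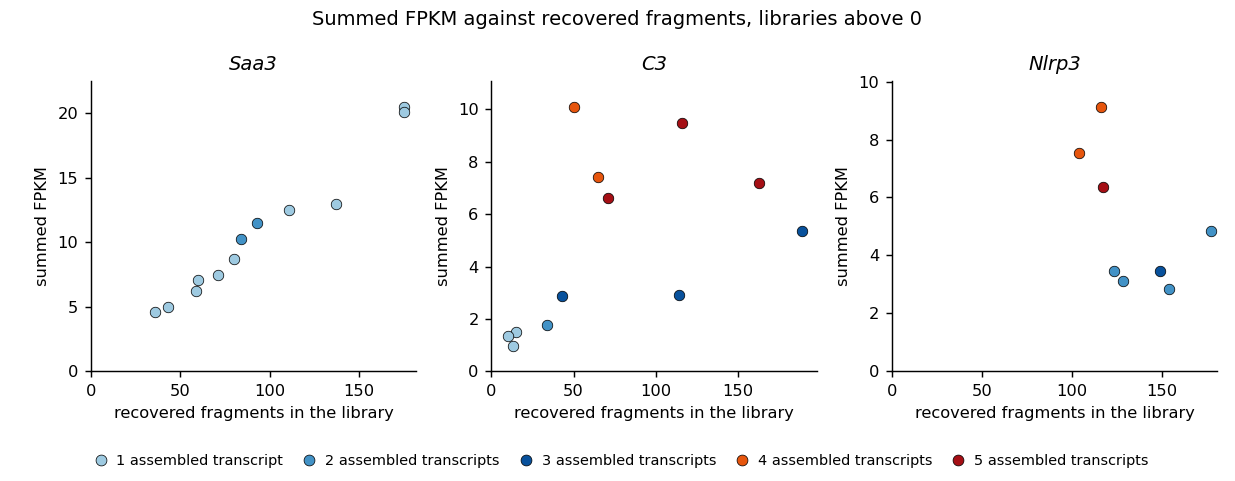
Summed FPKM (y axis) against recovered fragments (x axis) for Saa3, C3 and Nlrp3, each point 1 library above 0 and the colour the number of assembled transcripts. Saa3, in 1 or 2 transcripts, follows 1 line, while C3 at 50 fragments in 4 pieces has 10.1 FPKM and at 189 fragments in 3 pieces has 5.35 FPKM.

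The 250 bases before the annotated start of Saa3 (chr7:46715677-46715926) and of C3 (chr17:57228137-57228386) are shown because both genes were absent from every RelA(S276A) assembly and both were assembled in unstimulated cells of the other lines. The letters are those of RefSeq on GRCm38.p6, the assembly of mm10, read 5′ to 3′ on the minus strand. Capitals mark matches to TTNNGNAA, a core of C/EBP sites, on either strand.
Saa3: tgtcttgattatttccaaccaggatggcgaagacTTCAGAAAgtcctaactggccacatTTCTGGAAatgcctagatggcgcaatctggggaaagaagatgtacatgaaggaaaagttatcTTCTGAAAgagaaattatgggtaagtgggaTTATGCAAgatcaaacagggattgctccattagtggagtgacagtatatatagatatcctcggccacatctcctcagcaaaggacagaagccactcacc
C3: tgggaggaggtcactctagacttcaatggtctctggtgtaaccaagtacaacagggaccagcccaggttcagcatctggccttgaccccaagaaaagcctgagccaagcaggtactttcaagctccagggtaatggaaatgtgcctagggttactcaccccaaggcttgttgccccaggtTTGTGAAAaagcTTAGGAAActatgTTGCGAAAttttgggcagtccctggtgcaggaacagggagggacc
Saa3 held 4 such matches, the nearest from 99 to 92 bases before the start. C3 held matches at 3 places, from 70, 58 and 45 bases before the start, the last of them on both strands. At least 1 match was present in 36.9% of the 32851 windows of this length in the table. Neither window held a match to the κB consensus or to TATAAA, on either strand, in letters that 7.25% and 12.4% of all windows held. The Saa3 window does hold the letters tatatata, which an exact search for TATAAA does not match. These motifs were searched after the windows had been looked at, and the matches describe the sequence only.

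Lcn2, lipocalin 2, withholds iron from bacteria by binding their siderophores, at chr2:32384637-32387739 on the minus strand. Lcn2 was listed at 0 in both unstimulated RelA(wt) libraries, at 1.30 and 1.33 FPKM at 1 h and at 3.12 and 2.20 FPKM at 2 h. The 3 pairs did not overlap and stood in the order of time. In RelA(TA2) cells Lcn2 was listed at 0 and 5.09 FPKM at 0 h, 4.31 and 1.12 FPKM at 1 h and 1.89 and 2.43 FPKM at 2 h. The 2 highest of these Lcn2 values came from short pieces, 294 bases with 13 fragments and 384 bases with 22 fragments, that covered 34.5% and 39.9% of the exonic bases. On fragments per M Lcn2 stood in RelA(TA2) at 0 and 0.52, 0.87 and 0.75, and 0.95 and 1.81 at the 3 times, with no overlap between times. The RelA(wt) libraries stood at 0.90 and 0.55 at 1 h and at 1.40 and 1.64 at 2 h for Lcn2, overlapping those of RelA(TA2) at both times. Lcn2 rested on 13 to 45 fragments wherever it was assembled, close to the 10 at which assembly stopped, as C3 did in RelA(TA2), where 3 libraries held 10, 13 and 15. The receptor gene Slc22a17 was above 0 in all 18 libraries, at 4.9 to 9.5 FPKM.

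Nlrp3, the sensor protein of an inflammasome that activates caspase-1, lies at chr11:59542686-59566956 on the plus strand. Nlrp3 was listed at 0 in both unstimulated libraries of RelA(wt) and of RelA(TA2). At 1 h it was listed at 2.85 and 6.36 FPKM in RelA(wt) and at 3.47 and 3.10 FPKM in RelA(TA2). At 2 h Nlrp3 was listed at 9.11 and 4.83 FPKM in RelA(wt) and at 7.54 and 3.48 FPKM in RelA(TA2). Every stimulated library of these 2 lines was therefore above every unstimulated one, and no RelA(S276A) library reached assembly. As with C3, the highest FPKM were sums over many pieces: 9.11 FPKM of Nlrp3 came from 4 pieces with 116 fragments and 2.85 FPKM from 2 pieces with 154 fragments. On fragments per M Nlrp3 stood at 5.54 and 4.62 at 1 h and 5.26 and 7.87 at 2 h in RelA(wt), and at 5.89 and 5.36 at 1 h and 4.12 and 4.94 at 2 h in RelA(TA2). The 1 h and 2 h libraries of RelA(wt) overlapped for Nlrp3, and so did the RelA(wt) and RelA(TA2) libraries at 1 h. At 2 h both RelA(TA2) libraries lay below both RelA(wt) libraries in fragments. Pycard and Casp1, partners that an NLRP3 inflammasome needs, and the cytokine genes Il1b and Il1a were listed at 0 in all 18 libraries. Of other inflammasome genes, Nek7 (18.3 to 25.2 FPKM) and Gsdmd (3.31 to 11.4 FPKM) were above 0 in all 18, and Il18 in 16.

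Tlr2 encodes a cell-surface receptor for bacterial lipoproteins and lies at chr3:83836272-83841608 on the minus strand. In RelA(wt) cells Tlr2 was listed at 6.11 and 5.67 FPKM at 0 h, 8.75 and 8.02 FPKM at 1 h and 10.3 and 10.1 FPKM at 2 h. These pairs did not overlap and gave log2 differences of 0.48 ± 0.14 (SE) at 1 h, or 0.19 with the highest transcript only, and 0.75 ± 0.14 at 2 h. Tlr2 stood in RelA(TA2) cells at 4.76 and 6.32 FPKM, 6.27 and 6.35 FPKM and 7.68 and 7.66 FPKM at the 3 times. Its 0 h and 1 h libraries overlapped there (log2 difference 0.18 ± 0.14), and both 2 h libraries lay above both at 0 h (0.45 ± 0.14). Without RelA(TA2) 0 h replicate 1 these differences of Tlr2 were -0.0029 and 0.26, without replicate 2 they were 0.37 and 0.63, and with the highest transcript only 0.51 and 0.89. In RelA(S276A) cells Tlr2 stood at 4.98 and 5.18 FPKM at 0 h, 5.37 and 5.29 FPKM at 1 h and 3.85 and 4.72 FPKM at 2 h. The 2 h libraries lay below those at 0 h on FPKM, by -0.23 ± 0.14 (-0.10 without RelA(S276A) 2 h replicate 1 and -0.36 without replicate 2), and overlapped them on fragments, where replicates held 11.5 and 14.8 per M at 2 h and 14.64 and 16.0 at 0 h. Over the 3 times Tlr2 differed from RelA(wt) by -0.29 ± 0.08 in RelA(TA2) and by -0.66 ± 0.08 in RelA(S276A). All 6 RelA(S276A) libraries of Tlr2 lay below all 6 RelA(wt) libraries, whereas those of RelA(TA2) overlapped RelA(wt).

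The window of 250 bases before the start of Tlr2 (chr3:83841609-83841858, minus strand) is shown because it is the only one of the windows at the annotated starts of Saa3, C3, Lcn2, Nlrp3 and Tlr2 that held the κB consensus, searched on both strands. Capitals mark that match, which spans 2 overlapping frames from 173 to 163 bases before the start, and a TTNNGNAA match on the other strand from 245 to 238 bases before it.
Tlr2: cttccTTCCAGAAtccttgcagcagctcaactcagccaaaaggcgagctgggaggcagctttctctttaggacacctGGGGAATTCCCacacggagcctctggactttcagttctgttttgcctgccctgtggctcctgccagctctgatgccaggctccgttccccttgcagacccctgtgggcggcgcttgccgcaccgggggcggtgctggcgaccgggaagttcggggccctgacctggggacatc
The κB consensus was present in 2382 of the 32851 windows, 7.25%. A second listed start of Nlrp3, upstream of the one the gene model uses, also held it at 1 place, from 186 to 177 bases before that start.

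Ripk2 encodes a kinase that carries signals from the receptors NOD1 and NOD2 to NF-κB and lies at chr4:16121231-16163631 on the minus strand. In RelA(wt) cells Ripk2 was listed at 5.03 and 4.77 FPKM at 0 h, 5.74 and 6.005 FPKM at 1 h and 19.3 and 16.9 FPKM at 2 h. Most of the difference thus came between 1 h and 2 h. The log2 differences from 0 h were 0.24 ± 0.14 (SE) and 1.78 ± 0.14, or 0.10 and 1.43 with the highest transcript only. Ripk2 stood in RelA(TA2) cells at 5.98 and 7.21 FPKM, 8.14 and 7.25 FPKM and 16.5 and 14.0 FPKM at 0, 1 and 2 h. The 2 h libraries lay above the others there too. Their log2 difference from 0 h was 1.15 ± 0.14 on FPKM, 0.88 with the highest transcript only and 0.98 ± 0.09 on fragments. In RelA(S276A) cells Ripk2 stood at 4.32 and 3.85 FPKM at 0 h, 5.10 and 5.72 FPKM at 1 h and 5.29 and 5.73 FPKM at 2 h. Both times lay above 0 h, by 0.37 ± 0.14 at 1 h and 0.39 ± 0.14 at 2 h, and the 2 times overlapped. On fragments per M the unstimulated pairs of Ripk2 stood at 12.8 and 13.4 in RelA(wt), 18.6 and 20.8 in RelA(TA2) and 11.9 and 11.3 in RelA(S276A), without overlap between lines. At 2 h they stood at 52.1 and 48.3, 40.3 and 38.1, and 14.7 and 15.9, again without overlap and with RelA(TA2) between the others. Nod1 and Nod2, the receptors whose signal Ripk2 carries, were listed at 0 in all 18 libraries.

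**Figure D3:**
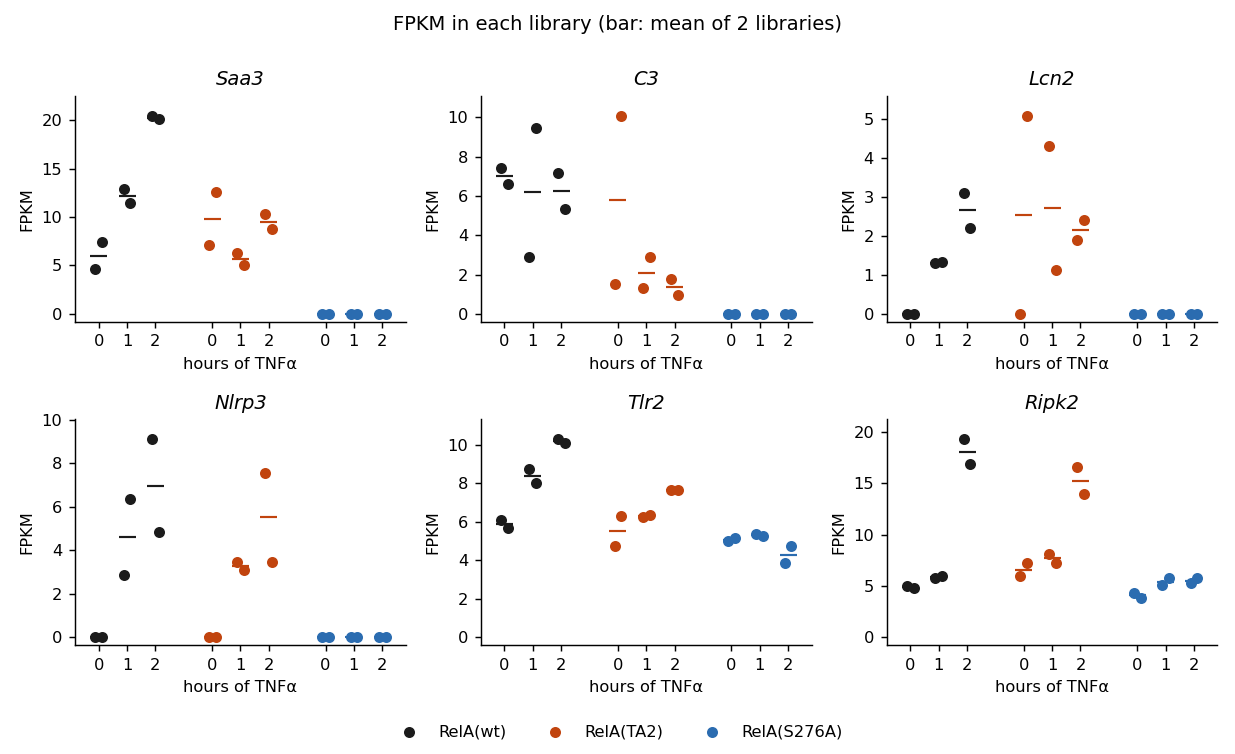
Summed FPKM (y axis, linear) of the 6 genes in each of the 18 libraries against hours of TNFα (x axis), each point 1 library and each bar the mean of 2 libraries. Ripk2 reaches 16.9 and 19.3 FPKM at 2 h in RelA(wt) and 5.29 and 5.73 FPKM in RelA(S276A), while C3 in RelA(TA2) spreads from 0.97 to 10.1 FPKM.

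Ordered by mean fragments per M, RelA(wt) at 2 h was the highest of the 9 conditions for each of the 6 genes. Its libraries overlapped the next condition for Lcn2 (RelA(TA2) at 2 h) and Nlrp3 (RelA(TA2) at 1 h) and not for the other 4. For Saa3 the next conditions, RelA(wt) at 1 h, RelA(TA2) at 0 h and RelA(TA2) at 2 h, overlapped one another in turn. For Ripk2, RelA(TA2) at 1 h overlapped RelA(TA2) at 0 h, and RelA(wt) at 1 h overlapped RelA(S276A) at 2 h. The latter overlapped RelA(S276A) at 1 h, which overlapped RelA(wt) at 0 h. The 3 RelA(S276A) conditions were the lowest of Tlr2 and overlapped one another in this order. The highest of them, RelA(S276A) at 1 h, overlapped RelA(TA2) at 0 h, which overlapped RelA(wt) at 0 h.

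In the fit over all 12244 genes tested, where limma called a gene at an adjusted p under 0.05, the 6 genes were called as follows, and nothing is read from these counts since the same values had chosen the genes. In RelA(wt) cells 1 of the 6 was called higher at 1 h (1.01% of all genes tested) and 4 at 2 h (1.27%), with 0 lower at either time (0.498% and 0.441% of all genes). In RelA(TA2) cells 1 was called higher at 1 h (1.04%) and 2 at 2 h (1.76%), with 0 lower (0.719% and 1.89%). In RelA(S276A) cells 0 were called either higher (0.907% at 1 h and 0.686% at 2 h) or lower (0.515% and 0.294%). Over the 3 times 0 were called higher and 1 lower in RelA(TA2) than in RelA(wt) (5.46% and 5.82%), and 0 higher and 5 lower in RelA(S276A) (6.87% and 5.12%). On fragments, where 11778 genes were tested, the counts were as high or higher. In RelA(wt) cells 2 of the 6 were called higher at 1 h and 5 at 2 h (3.52% and 6.33% of all genes), and 0 lower (3.65% and 7.27%). In RelA(TA2) cells 1 and 4 were called higher (3.63% and 9.19%) and 0 lower (7.05% and 19.7%). In RelA(S276A) cells 0 were called higher at 1 h and 1, Ripk2, at 2 h (2.29% and 4.58%), and 0 lower (4.18% and 6.11%). Between lines 1 was called higher and 3 lower in RelA(TA2) (21% and 21.3%), and 0 higher and 6 lower in RelA(S276A) (24.7% and 21%). These comparisons share their 0 h and RelA(wt) libraries.

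The wider families were followed in lists of acute-phase, complement, iron and antimicrobial defence, inflammasome, Toll-like receptor and NOD receptor genes, with the 6 genes left out. Of 140 list genes in the annotation, 71 were listed at 0 in all 18 libraries and 65 passed the filter for testing. At 0 throughout were 18 of 26 acute-phase genes, among them Hp, Crp and the fibrinogen genes, and 19 of 31 complement genes. Of the 65 list genes tested, 0 were called at 1 h in RelA(wt) cells by limma, beside 1.01% of all genes higher and 0.498% lower. At 2 h 2 rose and 0 fell, 3.08% and 0% beside 1.27% and 0.441% of all genes. In RelA(TA2) cells 2 rose and 0 fell at 1 h (3.08% and 0% beside 1.04% and 0.719% of all genes). At 2 h 3 rose and 2 fell there (4.62% and 3.08% beside 1.76% and 1.89%). In RelA(S276A) cells 1 rose and 1 fell at 1 h (1.54% each beside 0.907% and 0.515% of all genes). At 2 h 2 rose and 1 fell there (3.08% and 1.54% beside 0.686% and 0.294%). On fragments, 61 list genes could be tested and more were called. In RelA(wt) 3 were higher and 3 lower at 1 h (4.92% each beside 3.52% and 3.65% of all genes) and 5 higher and 3 lower at 2 h (8.2% and 4.92% beside 6.33% and 7.27%). In RelA(TA2) 3 were higher and 4 lower at 1 h (4.92% and 6.56% beside 3.63% and 7.05%), and 8 higher and 11 lower at 2 h (13.1% and 18% beside 9.19% and 19.7%). In RelA(S276A) 3 were higher and 4 lower at both times (4.92% and 6.56%), beside 2.29% and 4.18% of all genes at 1 h and 4.58% and 6.11% at 2 h. On FPKM the median log2 difference of the list genes lay between -0.13 and -0.02 in these 6 comparisons, beside -0.07 to 0 for all genes tested.

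Among acute-phase genes, Mt2, a metallothionein that binds zinc and copper, was the one called in the most of these comparisons. It was listed at 80.8 and 110.8 FPKM at 0 h and 221 and 252 FPKM at 2 h in RelA(wt), a log2 difference of 1.31 ± 0.16 (limma, adjusted p = 0.0017). In RelA(TA2) Mt2 rose from 68.3 and 82.6 FPKM to 147 and 165 FPKM at 1 h (adjusted p = 0.0062) and 537 and 535 FPKM at 2 h (log2 difference 2.83 ± 0.16, limma adjusted p = 4.8e-06). In RelA(S276A), where 4 of the 6 defence genes were never assembled, Mt2 rose from 142 and 123 FPKM to 292 and 272 FPKM at 2 h (1.09 ± 0.16, limma adjusted p = 0.0096, lost without RelA(S276A) 0 h replicate 2). Mmp9, a secreted protease of the antimicrobial list, was listed at 0 at 0 h in both mutant lines and at 6.93 and 14.7 FPKM at 2 h in RelA(TA2) (adjusted p = 2.6e-04) and 3.27 and 1.49 FPKM in RelA(S276A) (adjusted p = 0.021, lost in 4 of 11 alternative settings and without 3 of the 4 libraries). Mmp9 was above 0 in all 6 RelA(wt) libraries, at 2.04 to 5.08 FPKM, with a log2 difference of -0.64 at 2 h (limma adjusted p = 0.61). On fragments Mmp9 rose at 2 h in all 3 lines, by 1.71 (limma adjusted p = 0.0075) in RelA(wt), 2.72 (adjusted p = 2.3e-04) in RelA(TA2) and 2.69 (adjusted p = 7.8e-04) in RelA(S276A). C3ar1, a receptor for a cleavage product of C3, rose in RelA(TA2) at 1 h from 8.09 and 8.41 FPKM to 14.64 and 14.43 FPKM (0.78 ± 0.14, limma adjusted p = 0.017). The call was lost without any 1 of the 4 libraries. In the other lines, where it was not called on FPKM, C3ar1 stood at 10.2 and 9.76 FPKM at 0 h and 15.05 and 14.9 FPKM at 1 h in RelA(wt), and at 11.6 and 8.72 FPKM and then 13.2 and 15.3 FPKM in RelA(S276A). On fragments C3ar1 rose at 1 h in all 3 lines, by 0.55 (limma adjusted p = 0.0010) in RelA(wt), 0.86 (adjusted p = 3.4e-05) in RelA(TA2) and 0.76 (adjusted p = 1.2e-04) in RelA(S276A). The difference between lines was not tested.

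Of the receptor chains, Ticam1, an adaptor of the receptors TLR3 and TLR4, stood lower at 2 h than at 0 h in all 3 lines without overlap. It went from 14.9 and 13.5 FPKM to 9.05 and 9.02 FPKM in RelA(wt) (-0.62 ± 0.15, limma adjusted p = 0.086), from 7.36 and 10.8 FPKM to 5.10 and 5.01 FPKM in RelA(TA2) (-0.76 ± 0.15, adjusted p = 0.023) and from 10.5 and 11.97 FPKM to 6.73 and 6.11 FPKM in RelA(S276A) (-0.76 ± 0.15, adjusted p = 0.0499). The RelA(S276A) call of Ticam1 was lost in 9 of 11 alternative settings and without any 1 of its 4 libraries, and the RelA(TA2) call was lost without 3 of 4. On fragments Ticam1 fell by 0.69 in RelA(wt) (limma adjusted p = 0.0059), by 0.79 in RelA(TA2) (adjusted p = 0.0013) and by 0.82 in RelA(S276A) (adjusted p = 0.0031). Tlr4, the receptor for lipopolysaccharide, was listed at 0 at 0 h and at 11.3 and 13.9 FPKM at 1 h in RelA(S276A) (limma adjusted p = 0.0066). Its libraries at 1 h also lay above those at 0 h in RelA(wt), at 1.98 and 5.41 against 0 and 1.00 FPKM (limma adjusted p = 0.27), and in RelA(TA2), at 0.95 and 2.74 FPKM against 0 in both (adjusted p = 0.21). On fragments the adjusted p of Tlr4 at 1 h were 0.051 for RelA(wt), 0.016 for RelA(TA2) and 0.013 for RelA(S276A). The largest Tlr4 piece of a library covered from 11.2% to 58.4% of the gene, so its FPKM were sums over short pieces. Sharpin, a subunit of the linear ubiquitin ligase, was called higher at 2 h in RelA(wt) (1.47 ± 0.24, adjusted p = 0.010) and RelA(TA2) (1.53 ± 0.24, adjusted p = 0.0058) on FPKM. Without RelA(wt) 0 h replicate 1 or RelA(wt) 2 h replicate 2 the RelA(wt) call was lost. On fragments the difference of Sharpin was -0.01 (adjusted p = 0.96) and -0.18 (adjusted p = 0.14), and its libraries held 1 or 2 assembled transcripts of 295 to 2169 bases. Within the inflammasome list Il18, a cytokine released by inflammasomes, went from 1.49 and 1.31 FPKM to 0 in both libraries at 2 h in RelA(TA2) (limma adjusted p = 0.020, lost without 3 of the 4 libraries and with 1 FPKM added before the logarithm). Txnip, which binds thioredoxin and NLRP3, fell at 1 h in RelA(S276A) from 72.9 and 72.7 FPKM to 30.9 and 21.5 FPKM (-1.48 ± 0.27, limma adjusted p = 0.021, lost without 3 of the 4 libraries). Txnip at 1 h lay below 0 h without overlap in the other lines too, from 88.7 and 89.5 FPKM to 59.8 and 66.5 FPKM in RelA(wt) (-0.50 ± 0.27, limma adjusted p = 0.62) and from 58.4 and 68.4 FPKM to 29.9 and 33.6 FPKM in RelA(TA2) (-0.98 ± 0.27, adjusted p = 0.12). On fragments Txnip differed by -0.52 in RelA(wt) (limma adjusted p = 0.055), -0.96 in RelA(TA2) (adjusted p = 0.0014) and -1.53 in RelA(S276A) (adjusted p = 6.6e-05), and the differences between lines were not tested.

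Between lines, 4 list genes were higher and 9 lower in RelA(TA2) than in RelA(wt), 6.15% and 13.8% of the 65 beside 5.46% and 5.82% of all genes. In RelA(S276A) 3 were higher and 10 lower, 4.62% and 15.4% beside 6.87% and 5.12%. The shares of lower genes stood above those of all genes in both lines, and this gap was not tested. On fragments 10 were higher and 22 lower of 61 in RelA(TA2) (16.4% and 36.1% beside 21% and 21.3% of all genes), and 10 higher and 24 lower in RelA(S276A) (16.4% and 39.3% beside 24.7% and 21%). In the Toll-like receptor list 1 of 16 tested was higher and 4 lower in RelA(TA2), 6.25% and 25% beside 5.46% and 5.82% of all genes. Each of the other lists, of 5 to 12 genes tested, had 0 or 1 gene higher (0% to 20%) and 1 lower (8.33% to 20%) in this comparison. In RelA(S276A) 0 of the 16 were higher and 2 lower (12.5%). The other lists there had 0% to 40% higher and 0% to 40% lower, beside 6.87% and 5.12% of all genes. In RelA(TA2) the higher gene of the Toll-like receptor list was Irak2, a kinase downstream of MYD88. It stood at 11.8 to 16.0 FPKM against 5.40 to 7.98 FPKM (1.06 ± 0.09, limma adjusted p = 5.4e-05). Its relative Irak1 was lower there, at 24.3 to 27.9 FPKM against 32.2 to 61.1 FPKM (-0.60 ± 0.08, limma adjusted p = 0.0012, lost with the highest transcript only). Myd88, the adaptor that most Toll-like receptors, TLR2 among them, share, was lower in RelA(S276A), at 8.17 to 11.0 FPKM against 11.99 to 17.2 FPKM (-0.51 ± 0.10, limma adjusted p = 0.0067). Myd88 was also called lower in RelA(TA2), at 8.38 to 12.2 FPKM (-0.39 ± 0.10, limma adjusted p = 0.028), where the libraries overlapped and the call was lost without any 1 of 6 of the 12 libraries. Tab3, a partner of the kinase TAK1 downstream of RIPK2, was lower in RelA(TA2) (-0.43 ± 0.12, limma adjusted p = 0.046), a call lost without any 1 of 10 of the 12 libraries.

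In the complement list Clu, clusterin, a fluid-phase complement inhibitor, stood at 75.0 to 124.6 FPKM in RelA(TA2) and 138 to 169 FPKM in RelA(wt) (-0.82 ± 0.09, limma adjusted p = 3.0e-04). Cd55, which speeds the decay of C3 convertases, was higher in RelA(S276A) (5.08 to 7.19 against 2.54 to 4.38 FPKM, 0.79 ± 0.21, limma adjusted p = 0.032), a call lost without any 1 of 9 of the 12 libraries. In the iron list Fth1, the ferritin heavy chain, was lower in RelA(S276A) at 2890 to 3503 FPKM against 3646 to 4244 FPKM (-0.29 ± 0.07, limma adjusted p = 0.021), a call lost without any 1 of 4 of the 12 libraries and with quantile normalization. In the inflammasome list Casp4, a caspase activated by lipopolysaccharide, was at 0 to 0.95 FPKM in RelA(S276A) and 1.15 to 4.98 FPKM in RelA(wt) (limma adjusted p = 0.0022). Il18 was lower in RelA(TA2), at 0 to 1.49 FPKM against 1.55 to 3.38 FPKM (limma adjusted p = 0.0083). Nlrp1a was called higher in RelA(TA2) (1.01 ± 0.17, limma adjusted p = 0.0042), but its value in every library came from 1 piece of 178 to 204 bases, at most 4.24% of the gene. In RelA(S276A) Nlrp1a was called lower (-0.63 ± 0.17, limma adjusted p = 0.041), with overlap. This call was lost without any 1 of 10 of the 12 libraries and with a replicate block. Of the acute-phase genes, Serpina3n, a protease inhibitor, was called lower in both mutant lines, and Ptx3, a secreted pattern-recognition protein, in RelA(S276A), a call lost without any 1 of the 12 libraries. Both were named after their values were seen, and both were listed at 0 in all 6 RelA(S276A) libraries and at 0 to 3.60 FPKM (Serpina3n) and 0 to 2.02 FPKM (Ptx3) in RelA(wt).

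**Figure D4:**
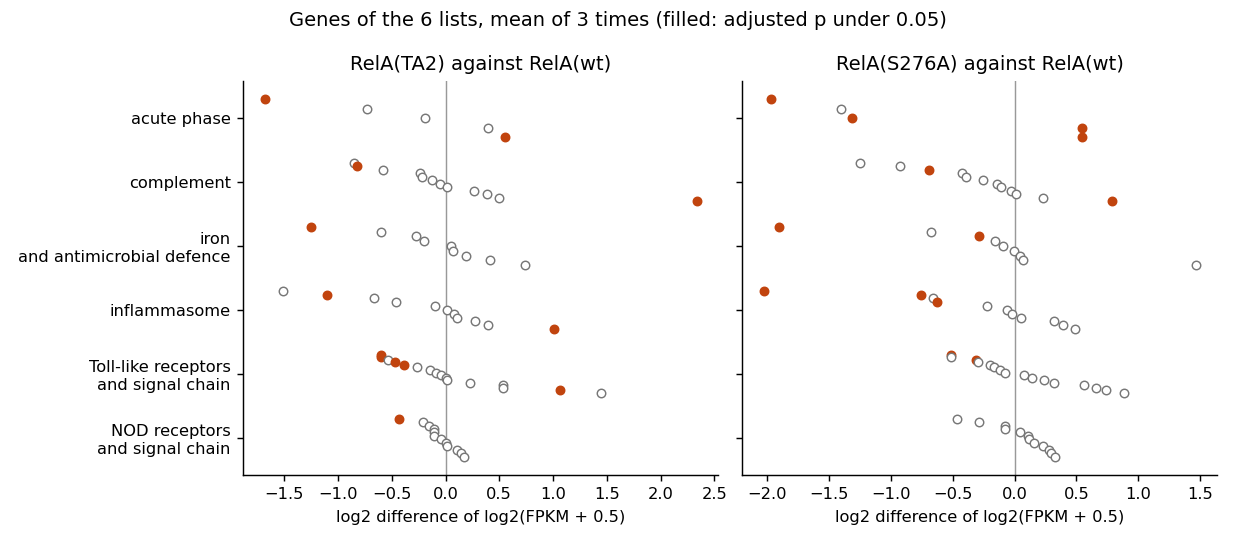
Difference of mean log2(FPKM + 0.5) from RelA(wt) over the 3 times (x axis) for the 65 list genes tested, by list (y axis), in RelA(TA2) and RelA(S276A). Filled points passed limma at an adjusted p under 0.05, 4 higher and 9 lower in RelA(TA2) and 3 higher and 10 lower in RelA(S276A).

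The genes whose pattern over the 18 libraries was most like that of each defence gene are given as a description, from Pearson correlations of log2(FPKM + 0.5) among 11319 genes, over points that share lines and times. Saa3 was closest to S100a16 (r = 0.95), Arhgef3 (r = 0.95) and Rcn1 (r = 0.95), and C3 to Dcn (r = 0.94), Mfsd6 (r = 0.94) and Npdc1 (r = 0.93). The libraries of Saa3 and C3 at 0 were those of RelA(S276A), so these values largely order the lines. Tlr2 was closest to Ikbke (r = 0.93), which encodes an IκB kinase-related enzyme, Procr (r = 0.92) and Wdr92 (r = 0.87). Ripk2 was closest to Clic4 (r = 0.96), Fas (r = 0.93), the death receptor gene, and Mcc (r = 0.93).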

How the data were processed

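The 18 RNA-seq libraries held poly(A) RNA of the 3 lines at 3 times. Per the submitters' processing notes, the authors used CASAVA 1.8.2, TopHat2 2.0.5 with Bowtie2 2.0.0.7 on mm10, Cufflinks 2.0.2 for assembly and Cuffdiff, which needs reads and was not rerun. The deposited values, other than coordinates, are FPKM of each assembled transcript with confidence limits, held in the annotation text. Whether counting used strand is not given in the sources used here, so antisense reads cannot be told apart. The merged annotation gave gene models.

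Assembled transcripts were placed on genes of the same strand, and those without a strand on genes of either strand. Pieces without a strand added 1.30 to 1.44 FPKM to Ripk2 at 2 h in RelA(wt) replicate 2 and in both RelA(TA2) libraries. Placement asked for 50% or more of the transcript's bases inside exons of the gene, or for 50% or more of the gene's exonic bases inside the transcript. FPKM were summed per gene. The 6 genes shared no assembled transcript with a neighbour. Fragments of transcripts assembled alone were recovered from FPKM and confidence limits, and 88.9% to 90.2% of those below 500 lay within 0.02 of a whole number. The rest were estimated from FPKM and transcript length.

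Genes with at least 1 FPKM in 2 libraries, 12244 in all, were fitted with limma 3.58.1 (R 4.3.3) on log2(FPKM + 0.5). The model had 1 mean per condition, eBayes used a variance trend, and 9 degrees of freedom were left for the spread. Every p is two-sided and adjusted by Benjamini and Hochberg over all genes tested. The amount added shrinks fold changes of low genes, whereas listing an unassembled gene at 0 can enlarge them. Differences of genes with libraries at 0 can thus err either way. The study took 2 independent replicates per condition, without saying what set them apart, so p measure only the spread between these libraries. Tables and figures used NumPy 2.4.6, pandas 2.3.3, matplotlib 3.10.9 and Python 3.11.15. The fit was tested on simulated data.

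Named genes are the 6, up to 2 per list and comparison with the smallest adjusted p among those called whose libraries did not overlap, the 3 genes most like each defence gene above 0 in at least 12 libraries, and Rela. Alternatives were other amounts added before the logarithm, other filters and scalings, the highest transcript only, 80% of bases for placement, recovered fragments, replicate blocks and leaving out each library. The 6 genes and the lists were chosen with earlier results of these data known. A result that the naming rule covers is not reported here.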

Additional observations from a re-analysis of the deposited data

Results flagged for a closer look

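Saa3 and Tlr2 moved in opposite directions in different lines without overlap between libraries, and these differences between lines were not tested. Saa3 at 1 h against 0 h had a log2 difference of 0.99 in RelA(wt) and -0.71 in RelA(TA2) on FPKM, with libraries apart on fragments too. In RelA(TA2) replicate 1 held 60 fragments at 0 h and 59 at 1 h, with overlapping deposited limits of FPKM. The RelA(TA2) log2 difference was -0.31 without RelA(TA2) 0 h replicate 2 and -1.10 without replicate 1. Tlr2 at 2 h against 0 h had a log2 difference of 0.75 in RelA(wt) and 0.45 in RelA(TA2) but -0.23 in RelA(S276A). The libraries of Tlr2 in RelA(S276A) overlapped on fragments per M, and the value was -0.10 without RelA(S276A) 2 h replicate 1. Dixon's test for a sample far from the others was not run, since each group held 2 libraries.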

How the results depend on the processing

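The counts of list genes called depended most on the unit. With recovered fragments per M they were 6 and 8 for RelA(wt) at 1 h and 2 h (0 and 2 on FPKM), 7 and 19 for RelA(TA2) (2 and 5), 7 and 7 for RelA(S276A) (2 and 3), and 32 and 34 for RelA(TA2) and RelA(S276A) against RelA(wt) (13 each). More of all genes were called on fragments too. Between lines the share was 21% to 24.7% in each direction, beside 5.12% to 6.87% on FPKM. Within lines it was 2.29% to 19.7%, beside 0.294% to 1.89%. The median SD between libraries of a condition was 0.309 on log2 FPKM and 0.104 on log2 fragments. With the highest transcript only, the counts were 1 for RelA(wt) at 1 h, 4 for RelA(S276A) at 1 h and 1 for RelA(S276A) at 2 h. With 1 FPKM added before the logarithm, RelA(S276A) at 2 h gave 1. The other alternatives, replicate blocks and left-out libraries aside, moved no count by more than 1.5 times, although the 1 lower gene of RelA(S276A) at 2 h, Ticam1, was lost in 9 of 11 alternatives. Leaving out 1 library gave 0 to 3 for RelA(wt) at 1 h, 1 to 2 at 2 h, 1 to 2 and 3 to 8 for RelA(TA2), 1 to 2 and 0 to 4 for RelA(S276A), 11 to 15 for RelA(TA2) against RelA(wt) and 9 to 13 for RelA(S276A) against RelA(wt). The extremes came without RelA(wt) 1 h replicate 1 (3) or replicate 2 (1), RelA(wt) 2 h replicate 2 (1), RelA(TA2) 0 h replicate 1 (1 at 1 h and 8 at 2 h), RelA(TA2) 1 h replicate 1 (1), RelA(TA2) 2 h replicate 1 or 2 (3 each), RelA(S276A) 0 h replicate 1 (1 at 1 h) and RelA(S276A) 0 h replicate 2 (0 at 2 h). The cause was not tested.

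Over 36 pairs of conditions the correlation between the deviations of same-numbered libraries ran from -0.07 to 0.08 on log2 FPKM. The median SD between libraries of a condition was 0.309 on this scale, against 0.104 on log2 fragments. A spread of this size could hide a deviation that same-numbered libraries share, so these correlations cannot show whether the numbers pair the samples. Pairing was not tested on fragments. With a replicate block the counts were 0 and 2 for RelA(wt) at 1 h and 2 h, 2 and 6 for RelA(TA2), 2 and 2 for RelA(S276A), and 14 and 12 for the lines. With a replicate block within line they were 0 and 2, 1 and 3, and 1 and 0.

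The differences of Saa3, C3, Tlr2 and Ripk2 were recomputed where every library was above 0. Of these 432 alternative values 391 moved by less than 1 SD between libraries and 41 by more, with no called value changing sign. Lcn2 and Nlrp3 had libraries at 0 in every comparison, so their fitted differences depend on the amount added and were not followed. Of 32 calls of list genes followed under each alternative, 15 were kept in every setting run. Sharpin at 2 h turned to -0.014 in RelA(wt) and -0.18 in RelA(TA2) with recovered fragments per M. Depth limits Lcn2, and C3 in RelA(TA2), since assembly needed about 10 fragments.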
